A study of Mus musculus with 31 samples.

Results

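Genes of the interleukin 1 (IL1) family and of the phagocyte oxidase were followed in mouse peritoneal macrophages with and without PPARγ. The members are the 9 listed symbols Il1a, Il1b, Il1rn, Il18, Cybb, Cyba, Ncf1, Ncf4 and Rac2, a fixed list of gene names. All 9 stand in the deposited expression table among 24277 symbols that are not dates. Of the 9 members, 8 passed the filter for testing (at least 1 FPKM in at least 3 libraries), as did 10327 genes in all, and Il1b did not.

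The cells were elicited in the abdominal cavity of C57BL/6 mice aged 8.5 weeks with 3% thioglycollate, collected after 4 days and cultured overnight in DMEM. Control mice and PPARgammaMPKO mice (called KO here, a macrophage knockout of the nuclear receptor PPARγ) were used, 4 of each. Cells were left untreated or were kept for 24 h with DMSO, with 1 uM rosiglitazone, a synthetic PPARγ ligand, or with 20 ng/mL IL4, a cytokine that drives alternative activation. The 31 RNA libraries form 8 groups, with 4 libraries in each and 3 in KO cells with rosiglitazone. Every group shares the strain, the elicitation and the overnight culture. Neither the promoter that drives the deletion nor the exons removed are named in the sources used here.

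Interleukin 1 alpha and beta (Il1a, Il1b) are inflammatory cytokines that signal through a common receptor. The receptor antagonist (Il1rn) occupies that receptor without signalling, and interleukin 18 (Il18) is a relative that is cut to its active form by caspase 1, as is IL1 beta. The phagocyte oxidase makes superoxide at the membrane of macrophages and neutrophils. Its catalytic core gp91phox (Cybb) and its partner p22phox (Cyba) sit in the membrane, and the organizer p47phox (Ncf1), p40phox (Ncf4) and the GTPase Rac2 join them from the cytosol.

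Values are FPKM, fragments per kilobase of transcript and per library size, brought to a common scale with a median ratio factor for every library. Differences are given on the log2(rescaled FPKM + 1) scale with their standard error (SE) from limma over all tested genes, and a gene was called at a Benjamini-Hochberg adjusted p under 0.05. Between 8601 and 9900 genes per library reached 1 FPKM, and the relative depth of the libraries ranged from 0.594 to 1.54. Pparg, the targeted gene, ranged from 37.5 to 50.8 FPKM in untreated KO cells and from 47.1 to 53.4 FPKM in untreated control cells. It was called higher, not lower, in KO cells with rosiglitazone (log2 difference 0.35 ± 0.10, limma adjusted p = 0.0141) and with IL4 (0.28 ± 0.09, adjusted p = 0.0432). A value over the whole gene does not show which exons are present, so it does not check the labels.

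Markers of the macrophage list had summed levels of 991 to 1400 FPKM, with Cd68 as the most abundant (629 to 1090 FPKM). Others were lower, such as Fcgr1 (3.21 to 15.1 FPKM), Cd14 (6.75 to 33.4 FPKM) and Lyz2 (10.2 to 21.0 FPKM). Of 8 tested, limma called 1 higher and 2 lower in KO cells in each of the 4 treatments. For neutrophils, which also carry the oxidase, the summed level of 12 markers in the table (of 13 listed) was 22.4 to 41.9 FPKM, and 3 of them were tested. S100a8 (4.23 to 29.4 FPKM), Csf3r (4.93 to 19.4 FPKM) and Mmp8 (0.875 to 26.9 FPKM) were above 0 in all 31 libraries, Ltf, Mmp9 and Cxcr2 reached at most 1.03 FPKM, and the other 6 were at 0 in 24 to 29 libraries, S100a9 in 29. Of the 3 tested, limma called 1 higher and 1 lower in KO cells untreated, 1 higher in DMSO, 1 higher and 1 lower with rosiglitazone, and 2 higher and 1 lower with IL4. Markers of mesothelial cells and fibroblasts had summed levels of 2.54 to 43.8 FPKM over the control libraries and 22.0 to 150.2 FPKM over the KO libraries, none of the 11 markers at 0, and Dcn as the most abundant. Of 10 tested, 1 was called higher in KO cells with IL4 and 0 in the other treatments. The resident large peritoneal macrophage list summed to 1.65 to 3.76 FPKM in control libraries and 3.62 to 6.98 FPKM in KO libraries, and 1 of 3 tested was called higher in KO cells in each treatment. The part of these cells in the differences between genotypes was not tested. In these bulk samples fewer cells of a type and less RNA per cell cannot be told apart.

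Libraries numbered 3 stood apart in several members. In 7 of 7 groups with 4 libraries, the library numbered 3 had the lowest Il1rn, the lowest Cyba and the highest Cybb. It had the lowest Ncf4 and the lowest Rac2 in 6 of 7 groups. In KO cells with rosiglitazone the library with the lowest Il1rn and Cyba and the highest Cybb was number 2. Results are therefore also given without these 7 libraries, an alternative chosen after seeing the data. These libraries were picked by the values of members such as Il1rn. Leaving them out narrows the spread of those members, so their p-values without these libraries are not independent support.

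**Figure D1:**
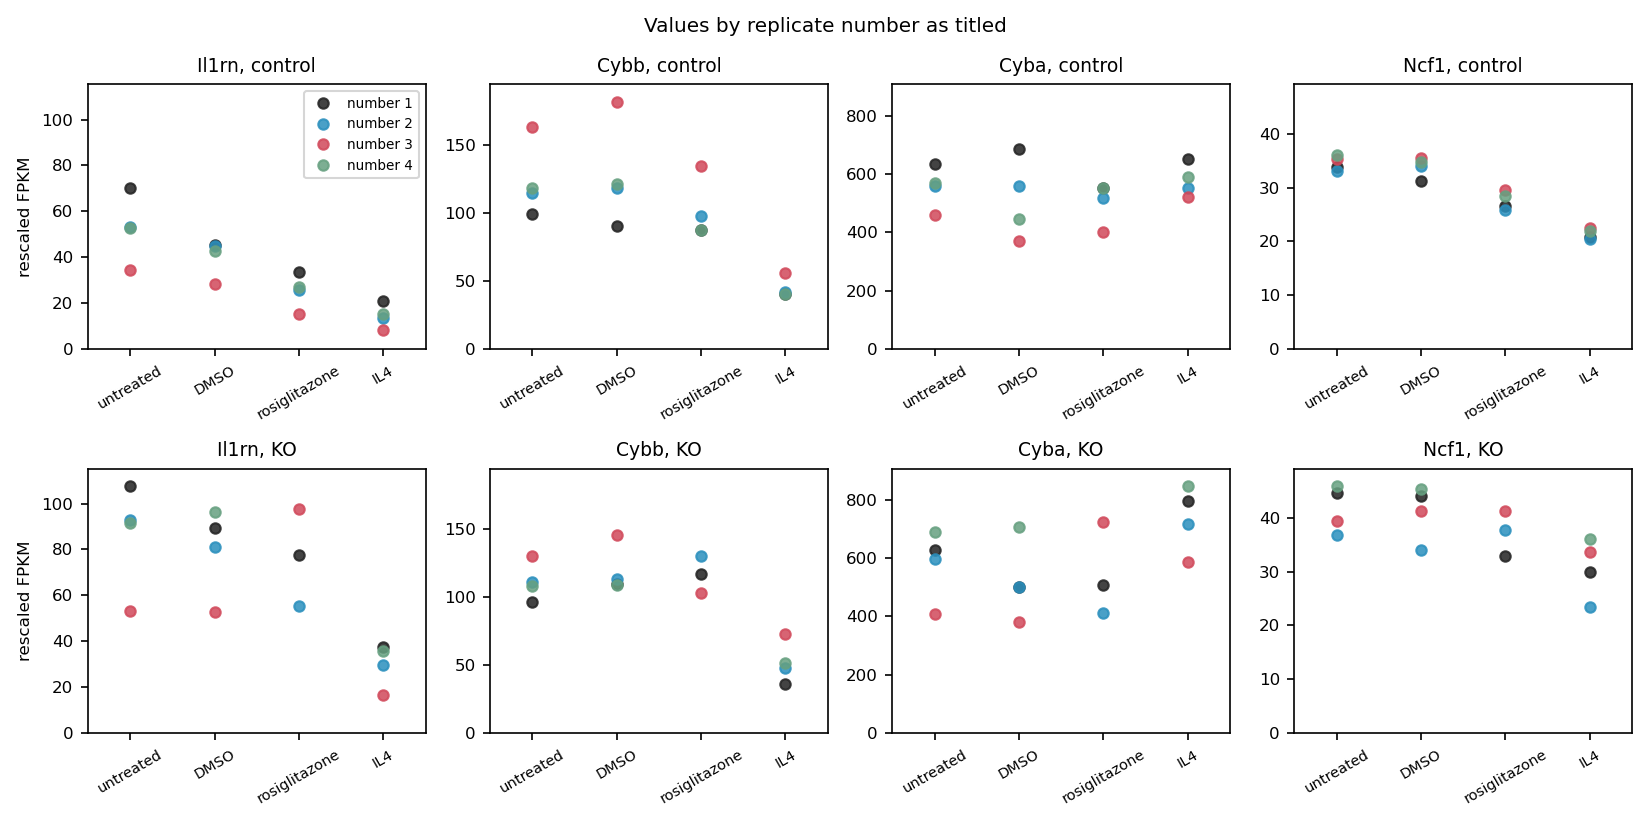
Rescaled FPKM of Il1rn, Cybb, Cyba and Ncf1 (y axis) in each treatment (x axis) for control libraries (top) and KO libraries (bottom), with colours for the replicate number in the labels. Number 3 is the lowest point for Il1rn and Cyba and the highest for Cybb in every group of 4.

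The members spanned a wide range of levels, given per length in rescaled FPKM. In untreated control cells Cyba was the highest at 557 ± 72.5 FPKM (mean ± SD, n = 4), followed by Cybb at 124 ± 27.8. Ncf4 at 58.8 ± 5.33 and Il1rn at 52.6 ± 14.6 came next, and Ncf1 at 34.6 ± 1.35 and Rac2 at 34.3 ± 1.49 followed. Il1rn overlapped Ncf4, Ncf1 and Rac2, and Ncf1 overlapped Rac2. Il1a at 12.1 ± 1.68, Il18 at 5.69 ± 0.238 and Il1b at 0.0667 ± 0.0446 FPKM followed without overlap. The antagonist transcript was thus above both IL1 agonist transcripts in untreated control cells, and Il1b was close to the limit of detection.

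**Figure D2:**
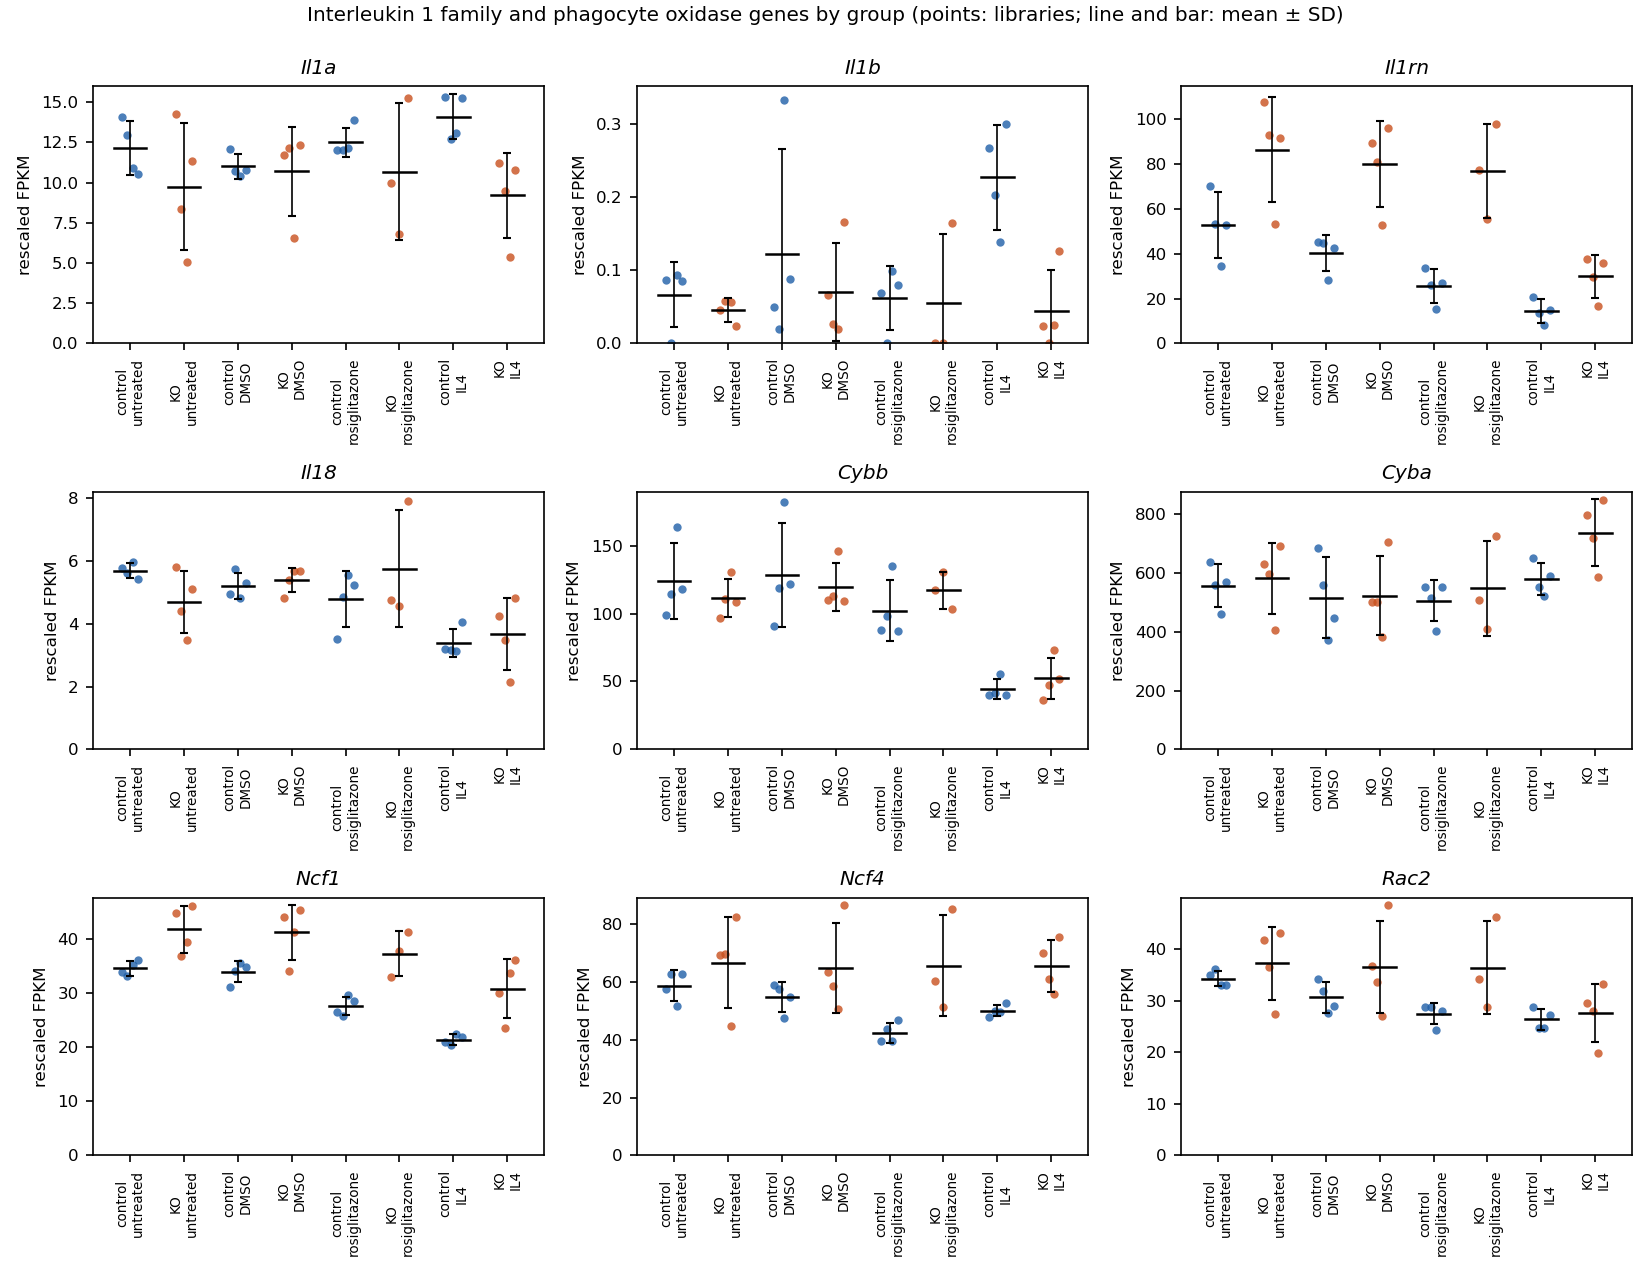
Rescaled FPKM (y axis, from 0) of the 9 members in each of 31 libraries, by group (x axis); points are libraries, blue for control and orange for KO, and lines with bars give the mean ± SD. Il1rn and Cybb stand lowest under IL4, and Il1rn stands higher in KO than in control groups.

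Il1rn was the most responsive member. In untreated control cells its levels were 70.2, 53.2, 34.5 and 52.5 FPKM in libraries 1 to 4, and with IL4 they were 20.9, 13.5, 8.03 and 15.1 FPKM. All libraries with IL4 lay below all untreated libraries. Il1rn fell by 1.83 ± 0.29 on the log2 scale (limma adjusted p = 2.76e-05), a ratio of mean levels of 0.273. In KO cells the untreated levels were 107.8, 92.7, 53.0 and 91.5 FPKM and the levels with IL4 were 37.4, 29.6, 16.5 and 35.8 FPKM, again without overlap. There Il1rn fell by 1.52 ± 0.29 (limma adjusted p = 0.00032).

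The Il1rn sequences are shown because this gene carries the largest differences and has more than 1 annotated start. RefSeq promoter windows (250 bases before to 50 bases after a start, GRCm38.p6; the build named for the deposited values is mm9, so no coordinate of the values is given) were available for 7 of the 9 members. Ncf4 and Rac2 had none. Motifs were searched on both strands, and a match is a description only. The upstream Il1rn start lies at chr2:24336610-24336909 on the plus strand, and a downstream one at chr2:24345121-24345420 on the plus strand. Capitals mark the matches: in the upstream window a nuclear receptor half-site (AGGTCA, present in 16.3% of 32851 promoter windows, here on the minus strand) and an NF-kB-type match (GGGANNNNCC, in 20.7%), and in the downstream window a STAT6-type match (TTCNNNNGAA, in 6.95%).
Il1rn upstream start: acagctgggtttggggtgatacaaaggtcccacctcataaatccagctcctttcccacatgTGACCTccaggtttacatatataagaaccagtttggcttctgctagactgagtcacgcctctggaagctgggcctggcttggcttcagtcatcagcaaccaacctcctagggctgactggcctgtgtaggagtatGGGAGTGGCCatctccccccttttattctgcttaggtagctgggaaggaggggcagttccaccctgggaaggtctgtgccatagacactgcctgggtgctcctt
Il1rn downstream start: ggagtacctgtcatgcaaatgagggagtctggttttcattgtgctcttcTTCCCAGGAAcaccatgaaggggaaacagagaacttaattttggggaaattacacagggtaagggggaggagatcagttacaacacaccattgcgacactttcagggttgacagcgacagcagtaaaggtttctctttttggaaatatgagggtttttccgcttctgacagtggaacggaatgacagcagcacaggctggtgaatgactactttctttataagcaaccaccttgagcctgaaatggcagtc
STAT6 is the transcription factor activated by the IL4 receptor. Another annotated Il1rn start, between them, shares the same STAT6-type match. FPKM over the whole gene does not show which start was used.

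Under IL4, 4 of 8 tested members were called lower in control cells and 0 higher. Of all tested genes, 23% were called in either direction and 11.1% lower. The median log2 difference was -0.49 over the tested members and -0.00021 over all tested genes. In KO cells 3 of 8 were called lower and 0 higher, against 19.5% of all tested genes in either direction and 9.38% lower, and the medians were -0.36 and 0.0062. In control cells 5 members had all IL4 libraries below all untreated libraries (15.3% of tested genes did), and in KO cells 3 members did (8.72% of tested genes).

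Cybb, the catalytic core of the oxidase, changed most among the oxidase genes. Its levels in untreated control cells were 99.1, 114.6, 163.8 and 118.4 FPKM, and with IL4 they were 40.4, 41.8, 55.8 and 40.3 FPKM. In KO cells they were 96.5, 110.9, 130.4 and 108.6 FPKM untreated, and 36.3, 47.7, 73.1 and 51.7 FPKM with IL4. The groups did not overlap in either genotype. Cybb fell by 1.44 ± 0.20 in control cells (limma adjusted p = 2.51e-06) and by 1.12 ± 0.20 in KO cells (adjusted p = 0.000104). Ncf1 fell by 0.67 ± 0.10 in control cells (adjusted p = 1.41e-05), with untreated levels of 33.9, 33.1, 35.3 and 36.1 FPKM and levels of 20.9, 20.4, 22.4 and 21.9 FPKM with IL4. In KO cells Ncf1 fell by 0.44 ± 0.10 (adjusted p = 0.00227), from 44.7, 36.8, 39.5 and 46.0 FPKM to 30.0, 23.5, 33.7 and 36.0 FPKM. The Ncf1 call in KO cells was lost on values as deposited (adjusted p = 0.589) and with only the libraries compared (adjusted p = 0.0727).

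Windows of Cybb and Ncf1 are shown because these genes carry the oxidase response. Cybb has its window at chrX:9469275-9469574 on the minus strand, and Ncf1 at chr5:134229576-134229875 on the minus strand. Capitals in Cybb mark 3 IRF-type matches (GAAANNGAAA, in 3.44% of promoter windows, of which 2 lie on the minus strand), an NF-kB-type match and a PU.1-type match (GAGGAA, in 28.3%, here on the minus strand). In Ncf1 they mark an IRF-type match and an NF-kB-type match on the minus strand. PU.1 and the interferon regulatory factors are transcription factors of myeloid cells.
Cybb: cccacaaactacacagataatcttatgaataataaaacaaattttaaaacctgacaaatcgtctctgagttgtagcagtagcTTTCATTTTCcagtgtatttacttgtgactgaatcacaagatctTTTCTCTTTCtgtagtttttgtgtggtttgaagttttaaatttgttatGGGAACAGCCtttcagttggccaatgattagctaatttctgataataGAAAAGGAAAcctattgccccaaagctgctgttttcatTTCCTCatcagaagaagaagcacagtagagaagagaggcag
Ncf1: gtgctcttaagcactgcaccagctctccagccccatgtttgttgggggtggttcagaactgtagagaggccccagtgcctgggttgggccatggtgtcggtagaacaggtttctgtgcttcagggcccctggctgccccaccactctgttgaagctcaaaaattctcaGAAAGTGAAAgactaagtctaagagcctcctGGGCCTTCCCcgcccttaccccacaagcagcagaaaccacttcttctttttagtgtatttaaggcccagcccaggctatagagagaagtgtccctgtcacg
The 7 members with a window had 9 windows in all. Of these members, 2 held an IRF-type match (in 3.44% of all promoter windows) and 2 a STAT6-type match (6.95%). An NF-kB-type match was held by 4 (20.7%), a PU.1-type match by 2 (28.3%) and a nuclear receptor half-site by 1 (16.3%). None held a C/EBP-type match (TTGCNNAA, in 10.8%). The shares are per window, and a member with more windows has more room for a match.

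Il18 fell with IL4 in control cells by 0.61 ± 0.16 (limma adjusted p = 0.00459), from 5.76, 5.61, 5.97 and 5.41 FPKM to 3.21, 3.17, 3.13 and 4.06 FPKM. In KO cells the difference was -0.30 ± 0.16 (adjusted p = 0.188) and the groups overlapped. The Il18 window holds a STAT6-type match, as do downstream windows of Il1rn, which fell in both genotypes. The windows of Cybb and Ncf1, which also fell in both genotypes, hold none. The part of these matches was not tested. Rac2 levels were 33.1 to 36.1 FPKM in untreated control cells and 24.8 to 28.8 FPKM with IL4, without overlap, but the difference of -0.37 ± 0.16 did not pass (adjusted p = 0.0945). In KO cells Rac2 differed by -0.42 ± 0.16 (adjusted p = 0.0594), and with the replicate number as a block the adjusted p was 0.0162.

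Cyba, Ncf4 and Il1a were not called for IL4 in either genotype. The partner p22phox transcript (Cyba) had 557 ± 72.5 FPKM untreated and 579 ± 55.5 FPKM with IL4 in control cells (0.06 ± 0.20, limma adjusted p = 0.887). In KO cells Cyba had 582 ± 122 and 737 ± 114 FPKM (0.36 ± 0.20, adjusted p = 0.234). The ratio of Cyba to Cybb within a library, a description, was 4.74 ± 1.48 in untreated and 13.3 ± 2.91 in IL4-treated control libraries. In KO libraries it was 5.35 ± 1.57 and 15.4 ± 5.73. The ratio exceeded the untreated range in all libraries with IL4 of both genotypes.

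**Figure D3:**
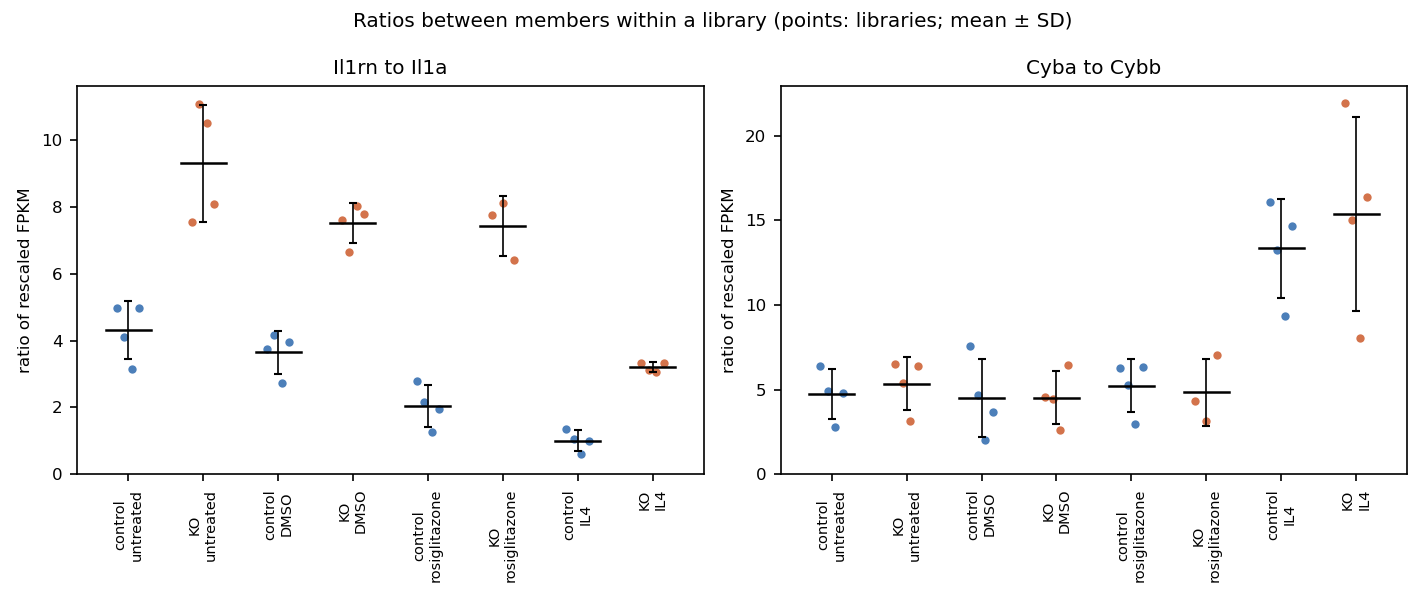
Ratio of rescaled FPKM of Il1rn to Il1a (left) and Cyba to Cybb (right) within each library (y axis, from 0) by group (x axis), with points for libraries and lines with bars for mean ± SD. KO libraries lie above control libraries of the same treatment for Il1rn to Il1a, and libraries with IL4 lie highest for Cyba to Cybb.

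Between genotypes, Il1rn was the member that differed most. With rosiglitazone, its levels were 33.6, 25.8, 15.4 and 27.1 FPKM in control cells and 77.4, 55.4 and 97.5 FPKM in KO cells, without overlap. Il1rn was higher in KO cells by 1.57 ± 0.32 (limma adjusted p = 0.00084), a ratio of mean levels of 3.02. With IL4 it was higher in KO cells by 1.01 ± 0.29 (adjusted p = 0.0224), and the 8 libraries overlapped. That call was lost with only the libraries compared (adjusted p = 0.0644) and without control IL4 library 3 or KO IL4 library 1, 2 or 4 (adjusted p = 0.131, 0.0881, 0.0537 and 0.0765). Without the 7 libraries that stood apart, picked in part by Il1rn itself, the Il1rn difference was 1.03 (adjusted p = 0.000315).

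In untreated cells the Il1rn difference was 0.70 ± 0.29 (limma adjusted p = 0.208) and in DMSO 0.96 ± 0.29 (adjusted p = 0.07), neither called. With the replicate number as a block the untreated difference was called (adjusted p = 0.0148), with 724 genes called over the whole table against 448. Without the 7 libraries that stood apart Il1rn was called in both (adjusted p = 0.0183 untreated and 0.00144 in DMSO). Those libraries were picked in part by Il1rn itself, so these calls are not independent support. In DMSO the KO levels were 89.4, 80.9, 52.7 and 96.1 FPKM against 45.3, 44.8, 28.3 and 42.7 FPKM in control cells, without overlap, and the difference was also called without KO DMSO library 3 (adjusted p = 0.034).

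Ncf1, the organizer, was higher in KO cells with rosiglitazone by 0.42 ± 0.11 (limma adjusted p = 0.0104). Its levels were 26.5, 25.8, 29.6 and 28.5 FPKM in control and 33.0, 37.7 and 41.2 FPKM in KO cells, without overlap. With IL4 Ncf1 was higher by 0.49 ± 0.10 (adjusted p = 0.00127), at 20.4 to 22.4 FPKM in control and 23.5 to 36.0 FPKM in KO cells. Ncf4, which binds phosphatidylinositol 3-phosphate in the assembled oxidase, was higher with rosiglitazone by 0.59 ± 0.17 (adjusted p = 0.0208), at 39.7, 43.8, 39.5 and 46.9 FPKM in control and 60.5, 51.5 and 85.4 FPKM in KO cells, without overlap. With IL4 the Ncf4 difference was 0.38 ± 0.16 (adjusted p = 0.147). On values as deposited the calls of Ncf1 and Ncf4 with rosiglitazone were lost (adjusted p = 0.567 and 0.318), as was that of Ncf1 with IL4 (adjusted p = 0.116). Without KO rosiglitazone library 3, Ncf1 (adjusted p = 0.0803) and Ncf4 (adjusted p = 0.204) were not called, and the Ncf4 call was also lost with only the libraries compared (adjusted p = 0.0637) and without control rosiglitazone library 1 or 3 (adjusted p = 0.0527 and 0.0578). Without the 7 libraries that stood apart all 3 members remained called with rosiglitazone.

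Over the tested members, 3 of 8 were called higher in KO cells with rosiglitazone and 2 of 8 with IL4, and 0 lower in either. Of all tested genes, 11.7% were called with rosiglitazone and 5.05% were called higher. With IL4 these shares were 10.8% and 5.06%. The median log2 difference over members was 0.29 with rosiglitazone and 0.27 with IL4, against -0.0038 and 0.0065 over all tested genes. In untreated and in DMSO-treated cells 0 of 8 members were called, against 4.34% and 3.53% of tested genes, with unadjusted p under 0.05 for 2 members in each and for 1701 and 1485 tested genes. Members with all KO libraries above all control libraries were 1 untreated (Ncf1), 1 in DMSO (Il1rn), 3 with rosiglitazone and 2 with IL4 (Ncf1 and Ncf4), against 3.88%, 3.94%, 8.62% and 7.53% of tested genes. Cybb, Cyba, Rac2, Il18 and Il1a were not called between genotypes in any treatment. A replicate block matched KO rosiglitazone libraries 1 to 3 to numbers 2 to 4, as read from these data and not from labels. Under this block Rac2 was called higher with rosiglitazone (0.40, limma adjusted p = 0.0121), for 4 members in all. The matching was picked by correlations of these same libraries, so that call is not independent support. The Il1a difference with IL4 was -0.61 ± 0.23 (adjusted p = 0.101), at 12.7 to 15.3 FPKM in control and 5.40 to 11.2 FPKM in KO cells, without overlap, as in 9.09% of tested genes that were below. Mesothelial and fibroblast marker sums ranged from 3.95 to 39.2 FPKM in control IL4 libraries and from 35.4 to 150.2 FPKM in KO IL4 libraries, and their part in these differences was not tested.

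**Figure D4:**
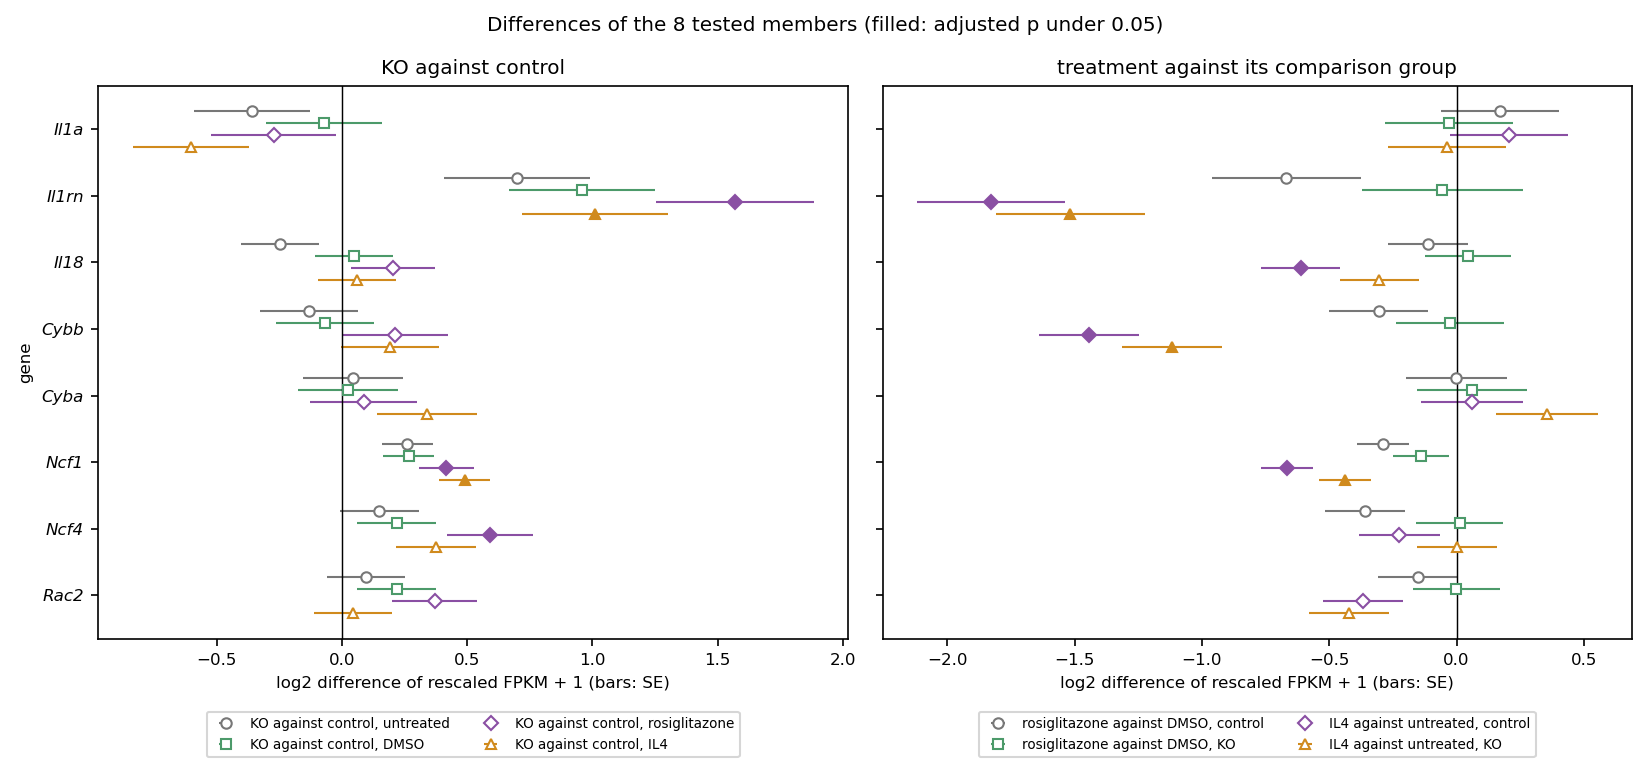
Log2 differences of the 8 tested members (x axis) for KO against control cells in each treatment (left) and for rosiglitazone against DMSO and IL4 against untreated cells in each genotype (right), with bars for SE and filled symbols for adjusted p under 0.05. Il1rn, Cyba, Ncf1, Ncf4 and Rac2 lie to the right of 0 in all 4 genotype comparisons. Of these, Cyba and Rac2 are filled in none of the 4, and Cyba lies near 0 untreated (0.04 ± 0.20) and in DMSO (0.02 ± 0.20). Under IL4, Il1rn, Cybb and Ncf1 are filled in both genotypes.

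The ratio of Il1rn to Il1a, antagonist to agonist transcript, was higher in KO than in control libraries without overlap in all 4 treatments. It was 4.31 ± 0.870 in control and 9.31 ± 1.76 in KO libraries untreated, and 3.65 ± 0.639 and 7.52 ± 0.598 in DMSO. With rosiglitazone it was 2.04 ± 0.630 and 7.43 ± 0.905, and with IL4 1.01 ± 0.309 and 3.22 ± 0.141 (SD over 4 libraries, 3 for KO with rosiglitazone). This ratio was set up with the levels known and is given as a description without a test.

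Rosiglitazone against DMSO gave 0 of 8 members called in control cells, where 4.46% of tested genes were called. In control cells Il1rn had 45.3, 44.8, 28.3 and 42.7 FPKM in DMSO and 33.6, 25.8, 15.4 and 27.1 FPKM with rosiglitazone, and the groups overlapped (-0.67 ± 0.29, limma adjusted p = 0.263). Ncf1 (-0.29 ± 0.10, adjusted p = 0.126) and Ncf4 (-0.36 ± 0.16, adjusted p = 0.268) lay below DMSO without overlap, as did 3.91% of tested genes, and were not called. With the replicate number as a block, Il1rn (adjusted p = 0.0216) and Ncf1 (adjusted p = 0.018) were called lower, with 735 genes called against 461. In KO cells Il1rn had 79.8 ± 19.1 FPKM in DMSO and 76.8 ± 21.1 FPKM with rosiglitazone (-0.06 ± 0.32, adjusted p = 1). In KO cells 0 of 8 members and 0% of tested genes were called by limma, with 151 genes at an unadjusted p under 0.05.

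DMSO against untreated cells gave 0 of 8 members and 0% of tested genes in control cells and the same in KO cells, with 681 and 512 genes at an unadjusted p under 0.05. As a block, the replicate number gave 28 genes and 0 members in KO cells. The difference between genotypes in the response to rosiglitazone was called for 0 members and 0.804% of tested genes, and that to IL4 for 0 members and 0.697%. For Il1rn the difference in the rosiglitazone response was 0.61 ± 0.43 and that in the IL4 response 0.31 ± 0.41 (limma adjusted p = 1 for both). The rosiglitazone result depended on how libraries were matched. With KO rosiglitazone libraries matched to numbers 2 to 4 in a block within each genotype, 369 genes and 2 members were called. These members were Il1rn (0.72, limma adjusted p = 0.000399) and Ncf4 (0.39, adjusted p = 0.0331). The matching was picked by correlations of these same libraries, and blocking on it narrows the spread. The p-values under it are therefore not independent support. These comparisons share libraries: IL4 and DMSO were set against the same untreated libraries, and each genotype comparison shares its libraries with the responses.

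Il1b lay between 0 and 0.327 FPKM as deposited and was at 0 in 5 libraries. Its values were whole multiples of 1 step after correction for relative depth, within 3.41e-05 of a whole number, so the smallest was taken as 1 read. On that scale the control libraries held 3, 0, 4 and 3 reads untreated, 3, 1, 15 and 3 in DMSO, 3, 0, 3 and 3 with rosiglitazone, and 16, 5, 8 and 12 with IL4. The KO libraries held 2, 1, 2 and 1 reads untreated, 2, 1, 1 and 11 in DMSO, 0, 0 and 7 with rosiglitazone, and 1, 0, 1 and 6 with IL4. At 41 reads over the 4 control IL4 libraries and 22 or fewer in every other group, counting error is large, and 1 library held most of the reads in both DMSO groups and in KO cells with rosiglitazone or IL4.

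**Figure D5:**
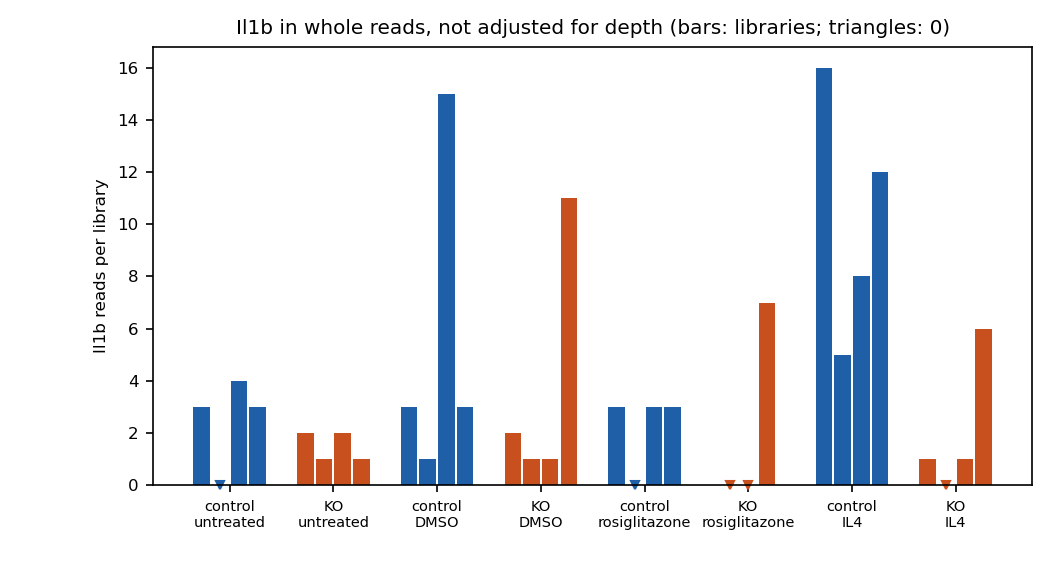
Reads assigned to Il1b in each library (y axis, from 0), by group (x axis), with bars for libraries in blue for control and orange for KO and triangles for 0, without adjustment for depth. Control libraries with IL4 hold 5 to 16 reads and KO libraries with IL4 hold 0 to 6.

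With no filter on low values, so that Il1b entered the fit with 17699 genes, Il1b was lower in KO than in control cells with IL4 by 0.23 ± 0.07 on the log2(rescaled FPKM + 1) scale (limma adjusted p = 0.0263). It was higher with IL4 than untreated in control cells by 0.20 ± 0.07 (adjusted p = 0.041). The control IL4 libraries had 0.138 to 0.300 FPKM and the KO IL4 libraries 0 to 0.127 FPKM, without overlap. Of the genes that passed the filter, 9.09% had KO below control without overlap with IL4. These Il1b values stand for 5 to 16 and 0 to 6 reads, and the fit does not model counting error. The other alternatives kept the filter, so these Il1b calls were not checked under them. The difference between genotypes in the response was not called (adjusted p = 0.892). Il1bos, annotated across Il1b, reached at most 0.0260 FPKM, and Gm14023 across Il1a at most 0.135 FPKM. The sources used here do not say whether counting used strand, so reads of overlapping genes cannot be told apart.

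The counts in the lists of related genes are to be read against all tested genes. With IL4, 11.9% of tested genes were called higher and 11.1% lower in control cells, and 10.1% and 9.38% in KO cells. In KO against control cells, the shares called higher and lower were 1.76% and 2.58% untreated, 1.34% and 2.2% in DMSO, 5.05% and 6.68% with rosiglitazone, and 5.06% and 5.77% with IL4.

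Other ligands of the family were near the limit of detection. Of 11 listed symbols 6 stand in the table and 0 were tested, with Il33 reaching 0.365 FPKM and Il1f9 0.683 FPKM at most. Of 11 receptor and binding protein symbols 4 were tested. In KO cells 1 of the 4 was called higher untreated, 0 in DMSO, 2 with rosiglitazone and 2 with IL4, and with IL4 2 rose in each genotype. Il1r1, the signalling receptor for IL1, was higher in KO cells untreated (1.09 ± 0.29, limma adjusted p = 0.0266, at 2.38 against 0.620 FPKM, libraries overlapping), with rosiglitazone (1.17, adjusted p = 0.011) and with IL4 (0.95, adjusted p = 0.0303). In DMSO its difference was 0.97 (adjusted p = 0.0613), not called. Fibroblasts also carry this receptor, and their part was not tested. Il18bp, the binding protein that holds interleukin 18 back, was higher in KO cells with rosiglitazone (0.95 ± 0.15, adjusted p = 2.69e-05) and with IL4 (0.79, adjusted p = 0.000125). Il1rl2, the receptor for interleukin 36, rose with IL4 in control cells by 1.37 ± 0.14 (adjusted p = 3.31e-08) and in KO cells by 1.13 (adjusted p = 1.02e-06).

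In receptor signalling, 3 of 11 tested genes fell with IL4 in control cells and 4 in KO cells, and 0 rose. Between genotypes 1 was higher and 1 lower in KO cells with rosiglitazone, 2 higher and 1 lower with IL4, and 0 were called in the other treatments. Irak2, a kinase of the receptor complex, fell by 0.69 ± 0.07 in control cells (limma adjusted p = 4.59e-08) and by 0.62 in KO cells (adjusted p = 3.76e-07). In the inflammasome list, 2 of 15 tested genes rose and 5 fell with IL4 in control cells, and 2 rose and 3 fell in KO cells. In KO against control cells 1 was lower untreated, 2 lower in DMSO, 1 higher and 4 lower with rosiglitazone, and 2 higher and 2 lower with IL4. Pycard, the adaptor that joins sensors to caspase 1, rose with IL4 by 0.47 in control cells (adjusted p = 0.000206) and by 0.78 in KO cells (adjusted p = 1.14e-07). Nlrc4, an inflammasome component, was lower in KO cells in all 4 treatments, from -0.44 untreated (adjusted p = 0.0195) to -1.34 with rosiglitazone (adjusted p = 2.62e-09). In control cells Nlrc4 rose with rosiglitazone by 0.70 ± 0.11 (adjusted p = 0.000124).

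Among 13 other tested oxidase and assembly genes, 3 rose and 3 fell with IL4 in each genotype, and 0 were called between genotypes in any treatment. Prkcd, a kinase that phosphorylates p47phox, rose with IL4 by 0.57 in control (limma adjusted p = 9.09e-09) and by 0.63 in KO cells (adjusted p = 1.62e-09). Hvcn1, the proton channel that balances the charge of the oxidase, rose by 0.35 (adjusted p = 0.00208) and by 0.44 (adjusted p = 0.000216).

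Of 7 tested genes that handle superoxide and peroxide, 2 rose and 3 fell with IL4 in control cells and 0 rose and 2 fell in KO cells. Between genotypes 1 was lower in KO cells with IL4 and 0 were called in the other treatments. Cat, catalase, fell by 0.62 in control (limma adjusted p = 0.000104) and by 0.70 in KO cells (adjusted p = 2.19e-05). In the NF-kB and early response list, 3 of 15 tested genes were higher in KO cells untreated, 1 in DMSO, 7 with rosiglitazone and 5 with IL4, and 0 were lower, with list medians of 0.22, 0.24, 0.51 and 0.26. With IL4, 1 rose and 5 fell in control cells and 3 rose and 5 fell in KO cells. Between genotypes, Ccl4, a chemokine, was higher in KO than in control cells with rosiglitazone by 1.27 ± 0.15 (limma adjusted p = 2.34e-07). Its mean level was 12.7 FPKM in KO and 4.62 FPKM in control cells with rosiglitazone. Of 8 tested myeloid factors, 3 rose and 1 fell with IL4 in control cells and 1 rose and 1 fell in KO cells. Between genotypes 1 was higher in KO cells with rosiglitazone and 0 were called in the other treatments. Irf8, a regulator of myeloid genes, fell by 0.54 ± 0.06 in control cells (adjusted p = 2.25e-07) and by 0.52 in KO cells (adjusted p = 4.36e-07).

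The genes most like each member over the 31 libraries were found by Pearson's r of log2 values, a description since libraries share mice and treatments. For Il1rn they were Carhsp1 (r = 0.953), Lsp1 (0.949) and Dio2 (0.945), and for Cybb they were Stk17b (0.953), Gng2 (0.949) and Scaper (0.943). Cyba was most like H2-T23 (0.961), Ctsz (0.952) and Cst3 (0.951). Ncf1 was most like Lpar6 (0.927), and Ncf4 most like Esd (0.942). Rac2 was most like Kcmf1 (0.930), Il1a most like Txn1 (0.902) and Il18 most like Rnf11 (0.872). Among members, r was 0.830 for Il1rn with Rac2, 0.810 for Il1rn with Ncf1 and -0.63 for Cybb with Cyba.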

How the data were processed

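Total RNA libraries from a stranded kit, per the labels' protocols, were given as 1 table of FPKM that the authors deposited. The submitters' processing notes name TopHat2, featureCounts, edgeR and mm9, without versions or the tool that made the FPKM. The table lists 24302 symbols, of which 25 are dates and were left out. Depth in reads is not given, and relative depth was taken from the steps of low values (under 0.1 FPKM).

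The 10327 tested genes had a minimum of 1 FPKM in 3 or more libraries. Each library was divided by the median of its ratios to gene geometric means, over tested genes above 0 in all 31 libraries. limma 3.58.1 in R 4.3.3 (intensity trend, a mean per group over 31 libraries) was fitted to log2(rescaled FPKM + 1) for 12 two-sided comparisons, with Benjamini-Hochberg adjustment and a call at 0.05. A pseudocount understates changes of low genes. The method was tested on simulated data with noise drawn independently for each library. Such data lack the shared deviations of same-numbered libraries described below. Some items are not reported here.

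Members and lists were chosen with earlier results of these data known. Named were the members, Pparg, up to 4 genes per list with the smallest p, and the 3 genes most like each member. The labels number replicates without saying that a number is a mouse. Same-numbered libraries deviated together, with every correlation over 0.1, for KO against control untreated (0.108 to 0.405), rosiglitazone against DMSO in control cells, and IL4 or DMSO against untreated in KO cells. For these the blocked value stands beside a result it changes. KO rosiglitazone libraries 1 to 3 correlated best with the next number (3 of 3), and 21 of 28 others with their own. Nothing in the labels shows that libraries come from separate cultures beyond the 4 mice per genotype, and p-values measure the spread between these libraries. Alternatives were the deposited scale, pseudocount 0.1, no filter, only the libraries compared, replicate blocks, left-out libraries and, added after seeing the data, factors over all genes and leaving out the 7 libraries numbered 3.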

Additional observations from a re-analysis of the deposited data

Results flagged for a closer look

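In groups of 4, a library was set apart when its gap to the nearest other library took more of the group's range than Dixon's 95% critical value allows, which chance gives in about 1 of 20 groups. Of 63 sets of a member and a group, 8 had such a library. The library numbered 3 stood apart in 5 of them: it was low for Il1a in KO DMSO (6.56 FPKM), for Il1rn in control DMSO (28.3 FPKM) and for Rac2 in control rosiglitazone (24.4 FPKM), and high for Cybb in KO DMSO (146 FPKM) and in control IL4 (55.8 FPKM). Library 4 was high for Il1a in control rosiglitazone (13.9 FPKM) and for Il18 in control IL4 (4.06 FPKM). Library 2 was low for Il1b in untreated control cells (0 FPKM), where the other libraries held 3 or 4 reads.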

How the results depend on the processing

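Of 437 values of named members under the alternatives, 402 kept direction and call, 15 lost and 20 gained a call, and 0 reversed. These cover 27 of 96 combinations of a member and a comparison. They were picked for an unadjusted limma p under 0.05 in the main fit or a call in any setting. Combinations picked this way seldom change sign, so the 0 reversed is not independent support. Of the other 69, 30 changed sign under an alternative and 35 when 1 library was left out. The causes were not tested.

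Genes called moved with the setting. On values as deposited the counts were 172 (KO against control untreated, 15 higher and 157 lower, against 182 and 266 on the common scale), 121 (DMSO, 64 and 57 against 138 and 227), 447 (rosiglitazone), 448 (IL4, 291 and 157 against 523 and 596), 91 (rosiglitazone against DMSO in control cells, 80 and 11 against 321 and 140), 698 (IL4 in control cells, 285 and 413 against 1231 and 1142), 862 (IL4 in KO cells, 739 and 123 against 1046 and 969), and 19 and 24 for the differences in response to rosiglitazone (0 and 19 against 11 and 72) and IL4 (14 and 10 against 26 and 46). Members called were then 1 with rosiglitazone and 1 with IL4 between genotypes. With only the libraries compared the counts were 178, 167 and 693 for KO against control untreated, in DMSO and with rosiglitazone, 1157 for IL4 in KO cells, and 46 and 44 for the differences in response. Under it Ncf4 gained a call with IL4 between genotypes (adjusted p = 0.0282) and, with Rac2, for IL4 in control cells (0.0349 and 0.00188). Pseudocount 0.1 gave 43 for the difference in the IL4 response. Without the 3 libraries of low sums, KO against control untreated gave 246 and the difference in the IL4 response 45.

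With the replicate block, KO against control gave 724 genes and 1 member untreated and 640 genes and 2 members in DMSO (Il1rn adjusted p = 0.001, Ncf1 0.0491). Rosiglitazone against DMSO in control cells gave 735 genes and 2 members. DMSO against untreated gave 1 gene in control and 28 in KO cells, and the differences in response gave 167 and 112. With the block and KO rosiglitazone libraries matched to numbers 2 to 4, KO against control gave 2065 genes. The difference in the rosiglitazone response then gave 369 genes and 2 members (Il1rn limma adjusted p = 0.000399, Ncf4 0.0331). That matching was read from these same data, so its calls are not independent support. Rac2 gained a call in IL4-treated control cells (adjusted p = 0.0311). Without the 7 libraries numbered 3, 1 member was called untreated and 1 in DMSO, in each case Il1rn, whose values helped pick these libraries.

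With 1 library left out at a time, genes called ranged from 269 to 506 for KO against control untreated, 257 to 371 in DMSO, 968 to 1153 with rosiglitazone, 820 to 1207 with IL4, 285 to 440 for rosiglitazone in control cells, 1971 to 2142 and 1612 to 2144 for IL4, 0 to 1 for DMSO in KO cells, and 65 to 81 and 53 to 73 for the differences. The 269 was without control untreated library 2 and the 285 without control rosiglitazone library 2. Members called ranged from 0 to 1 in DMSO, 1 to 3 with rosiglitazone and 1 to 2 with IL4 between genotypes, and 3 to 4 for IL4 in KO cells.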
